A study of Solenopsis invicta with 4 samples.

Results

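The contigs described here are the peptidases and sugar-cleaving enzymes of Solenopsis invicta, the red imported fire ant, as far as the authors' lists of differing transcripts hold them. They were chosen by the name of the best protein hit (trypsin, chymotrypsin, serine protease, carboxypeptidase, aminopeptidase, cathepsin, neprilysin, alpha-glucosidase, maltase, amylase or dipeptidyl). Names with venom or inhibitor were left out, and a hit in the ant itself was required. In all 46 of the 9001 listed contigs met the rule, assigned to 40 gene identifiers. RNA came from whole bodies of wild-type adult medium workers, a size class of the colony, held for 24 h at 10, 20, 30 or 40 °C. The label for the strain is RIFA, all workers came from colonies kept at 25 °C and fed 20% sucrose solution, mealworms and an artificial diet, and 30 °C was the study's control. Each temperature had 1 library, and the number of ants in it was not given in the sources used here. No value therefore has a replicate check, and no test between temperatures was possible: each ratio sets a single library beside another. In whole bodies, fewer cells of a type and less RNA per cell cannot be told apart.

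Trypsins and chymotrypsins are serine peptidases that insect midgut cells secrete to cut food protein, trypsin beside basic and chymotrypsin beside large hydrophobic residues. Carboxypeptidases and aminopeptidases then trim the fragments from their ends. In fire ants the larvae digest most solid protein for the colony, while workers live largely on liquid food, for which alpha-glucosidases split sucrose. Other members of the same families work outside the gut. Serine peptidases with a clip domain form activation cascades in the haemolymph, neprilysins and carboxypeptidase D act on signalling peptides, cathepsins degrade protein in lysosomes, and cytosolic carboxypeptidases remove glutamate from tubulin.

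The label was checked against the protein domains that the authors' tables give. A Pfam Trypsin domain was listed for 17 of the 20 contigs in the serine peptidase class, a clip domain for 2 and a serpin domain for 1. Of the 8 carboxypeptidase contigs 6 held the zinc peptidase domain M14. The other two held the M28 and S10 peptidase domains. The annotation went against the label for 4 contigs, which the rule caught through a word inside another word. Polyglutamylase ends in amylase, and 3 contigs named tubulin polyglutamylase carried the tubulin ligase domain TTL. Antichymotrypsin-2-like (LOC105201056) is a serpin, an inhibitor of serine peptidases. Counts are given with and without those 4. The remaining 42 contigs were named as enzymes or, for inactive dipeptidyl peptidase 10, as a relative without activity. For some of them the name alone is the ground. No domain was listed for 1 aminopeptidase and 1 neprilysin contig, and 1 cathepsin contig had only a propeptide inhibitor domain. Only 1 alpha-glucosidase and no maltase or amylase was listed.

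Read counts were scaled to counts per 1000000 reads (CPM) with the library sizes behind the authors' normalized values, which ran from 23204029 reads at 20 °C to 43393168 at 40 °C. Accordingly 1 read equals between 0.0230 CPM (40 °C) and 0.0431 CPM (20 °C). Folds are ratios of CPM, and the range in brackets is an exact Clopper-Pearson 95% interval that covers counting error only. The smallest fold in the authors' deposited tables is between 2.35 and 2.36, so a contig missing from a table is not called unchanged. The choice of scaling matters. The authors' FPKM values divide by total reads instead, which moves every log2 ratio of CPM by -0.64 at 20 °C, by 0.51 at 40 °C and by -0.02 at 10 °C, and by less where a pseudocount is added. No listed member could change direction on that scale, because the largest shift, 1.56-fold, is below the smallest member fold of 2.42. Several member folds crossed 2, and those values are given beside the results. Sums over contigs and the folds of companion contigs are given on the authors' scale only.

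Per length of contig, 3 chymotrypsins stood above the other members at 30 °C. Chymotrypsin-1-like LOC105193271 had 119.58 FPKM, chymotrypsin-1 LOC105197985 had 87.86 FPKM and chymotrypsin-2-like LOC105205908 had 78.14 FPKM. Carboxypeptidase D-like (LOC105199087), which trims peptides in the secretory pathway, came next at 39.29 FPKM. The median of the 46 contigs was 2.09 FPKM and the lowest, a TTLL6 contig, had 0.09 FPKM. In the annotation of assembly UNIL_Sinv_3.0, which lists 31 of the 40 genes, these 3 chymotrypsin genes lie close together. LOC105197985 and LOC105193271 are next to each other, and 2 annotated genes separate LOC105193271 from LOC105205908. Near-identical neighbours can share reads, so the split among them is uncertain.

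At 40 °C, 28 members were listed, 11 higher and 17 lower than at 30 °C. Lower members were thus 60.7% of those listed, against a background of 53.3% over all listed contigs and 41.0% over ant contigs with a protein name, and higher members stood beside 46.7% and 59.0%. Without the 4 contigs matched by name alone the counts were 10 higher and 15 lower. The abundant chymotrypsins and every listed carboxypeptidase and aminopeptidase were lower, while all 4 listed serine proteases named after fly cascade enzymes, 3 of 4 neprilysins and the alpha-glucosidase were higher. A mean of 1 CPM or more was reached by 24 members, and with a pseudocount of 1 CPM 9 of them passed 2-fold upwards and 13 downwards. All listed contigs gave 40.1% higher and 43.4% lower by that rule, and ant contigs with a protein name 56.2% and 31.7%. On the FPKM scale the members' split became 10 higher and 3 lower, beside 49.7% and 19.8% of all listed contigs and 62.8% and 13.4% of ant contigs with a protein name. The members' median log2 ratio was -1.09, against -0.82 over all listed contigs and 1.11 over ant contigs with a protein name. Since no listed contig lies near equal values, such a median sits on whichever side holds more contigs.

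**Figure D1:**
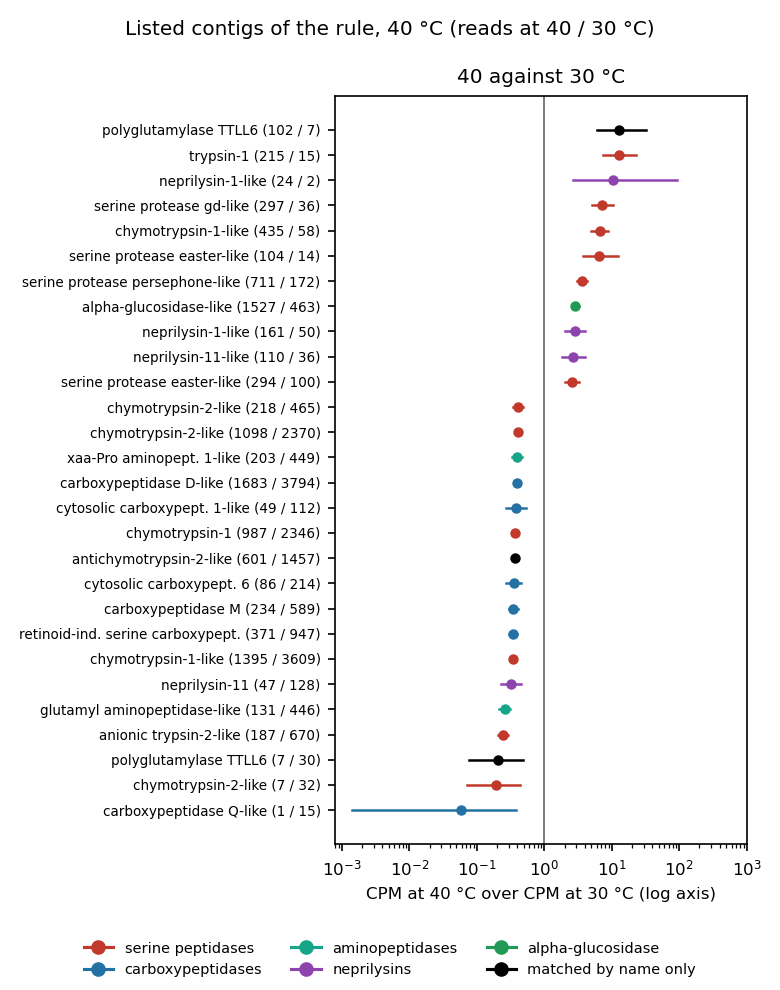
Ratio of CPM at 40 °C to CPM at 30 °C (log axis) for the 28 listed contigs, with reads at 40 and 30 °C in brackets after each name. Points are single-library ratios coloured by class and bars are 95% counting intervals; 11 contigs lie to the right of the line at equal CPM and 17 to the left, and black marks contigs that match the rule by name only.

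The 3 neighbouring chymotrypsins were lower at 40 °C by similar ratios. Chymotrypsin-1-like LOC105193271 held 1395 reads (32.1 CPM) at 40 °C and 3609 reads (94.3 CPM) at 30 °C, 2.93-fold lower (2.76 to 3.12). Chymotrypsin-1 LOC105197985 went from 61.3 CPM at 30 °C to 22.7 CPM, 2.69-fold lower (2.50 to 2.91), and chymotrypsin-2-like LOC105205908 from 61.9 to 25.3 CPM, 2.45-fold lower (2.28 to 2.63). The best UniProt hit of LOC105193271 and LOC105197985 is the chymotrypsin-1 known from this ant. On the FPKM scale these differences shrink to 2.06-fold, 1.89-fold and 1.72-fold.

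Anionic trypsin-2-like (LOC105207761) had the largest fold among the lower serine peptidases with at least 50 reads. It counted 187 reads at 40 °C and 670 at 30 °C, 4.31 against 17.5 CPM, and remained 2.85-fold lower on the FPKM scale. A chymotrypsin-2-like contig assigned to LOC105200925 was lower as well, with 218 against 465 reads and a fold of 2.42 (2.05 to 2.85), or 1.70 on the FPKM scale. A thinner contig of that gene showed 7 against 32 reads. Summed, both contigs gave 225 against 497 reads, 2.50-fold lower (2.13 to 2.94). Their best nucleotide hits name other genes than the protein hit, so their assignment is uncertain.

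Of the 8 listed contigs named trypsin or chymotrypsin, 6 were lower and 2 higher. Lower contigs made up 53.3% of all listed contigs and 41.0% of ant contigs with a protein name. Chymotrypsin-1-like LOC105194637, whose best UniProt hit is a fly trypsin alpha, was 6.62-fold higher (5.02 to 8.86), with 435 reads against 58 and 10.0 against 1.52 CPM. Trypsin-1 (LOC105193903) was 12.6-fold higher (7.5 to 23.0), with 215 reads against 15. Its best UniProt hit is stubble, a membrane-bound serine protease that shapes epithelia in Drosophila. Both were scarce at 30 °C, at 1.46 and 0.21 FPKM, far below the chymotrypsins that were lower.

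The serine proteases named after Drosophila cascade enzymes were all higher at 40 °C, 4 of 4 listed. Beside them stood 46.7% of all listed contigs and 59.0% of ant contigs with a protein name. They are a split by name within the serine peptidase class, which as a whole had 6 enzymes higher and 6 lower. Persephone, easter and gd cut other proteins to start signalling in the fly, persephone in Toll immunity and the others in setting the embryo's back-to-belly axis. The persephone-like contig (LOC105193144) held 711 reads at 40 °C and 172 at 30 °C, or 16.4 against 4.49 CPM, 3.65-fold higher (3.08 to 4.33). Its best UniProt hit is a venom serine protease, Bi-VSP, a name the rule left out where the first protein hit carried it. The gd-like contig (LOC105199125) held 297 against 36 reads, 7.28-fold higher (5.14 to 10.6). Easter-like LOC105204787 held 294 against 100 reads, 2.59-fold higher (2.06 to 3.29), and easter-like LOC105194356 held 104 against 14, 6.55-fold higher (3.74 to 12.4). The easter-like genes have 3 annotated genes between them in assembly UNIL_Sinv_3.0, and their contigs carry the clip domain with no trypsin domain listed. On the FPKM scale the 4 differences are larger, from 3.69-fold to 10.4-fold.

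All 6 listed carboxypeptidases were lower at 40 °C, beside 53.3% of all listed contigs and 41.0% of ant contigs with a protein name. Carboxypeptidase D-like (LOC105199087) was the most abundant, with 1683 reads (38.8 CPM) at 40 °C against 3794 reads (99.1 CPM) at 30 °C, 2.56-fold lower (2.41 to 2.71). Retinoid-inducible serine carboxypeptidase-like (LOC105200222), of a family found in mammalian lysosomes, went from 24.7 to 8.55 CPM, 2.89-fold lower (2.56 to 3.27). Carboxypeptidase M (LOC105199420), a membrane enzyme that removes basic end residues in mammals, was 2.85-fold lower (2.45 to 3.33). Cytosolic carboxypeptidase 6 (LOC105193518) was 2.82-fold lower (2.19 to 3.67) and cytosolic carboxypeptidase 1-like LOC105199439 was 2.59-fold lower (1.84 to 3.70). Both kinds take glutamate off tubulin in mammals. For these 5 contigs the FPKM scale left folds of 1.80 to 2.03. Carboxypeptidase Q-like (LOC105201454) held 1 read against 15, a ratio of 17 (2.62 to 716).

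Both listed aminopeptidases were lower, beside 53.3% of all listed contigs and 41.0% of ant contigs with a protein name. Glutamyl aminopeptidase-like (LOC105200005), which in mammals removes acidic end residues, held 131 reads at 40 °C and 446 at 30 °C, 3.86-fold lower (3.17 to 4.73) and 2.71-fold on the FPKM scale. Xaa-Pro aminopeptidase 1-like (LOC105195934), which removes a residue that precedes proline, held 203 against 449 reads, 2.51-fold lower (2.12 to 2.97) and 1.76-fold on the FPKM scale.

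Neprilysins, membrane metallopeptidases that inactivate small peptides, were higher in 3 of 4 listed contigs. Among all listed contigs 46.7% were higher, and among ant contigs with a protein name 59.0%. So few contigs are not read as a result about the class. Neprilysin-1-like LOC105205956 had 161 reads against 50, 2.84-fold higher (2.06 to 3.98), and neprilysin-11-like LOC105202621 had 110 against 36, 2.70-fold higher (1.83 to 4.04). A further neprilysin-1-like contig, LOC105202797, had 24 reads against 2, with a ratio of 10.6 (2.63 to 92.4). Neprilysin-11 LOC105197293 was lower, with 47 reads at 40 °C against 128, a fold of 3.09 (2.19 to 4.41). On the FPKM scale LOC105205956 was 4.04-fold and LOC105202621 3.84-fold higher, and LOC105197293 was 2.17-fold lower. The alpha-glucosidase-like contig (LOC105198437), whose best UniProt hit is the honey bee enzyme that splits sucrose, rested on many reads. It went from 463 reads (12.1 CPM) at 30 °C to 1527 reads (35.2 CPM) at 40 °C, 2.91-fold higher (2.62 to 3.24). At 4.14-fold the FPKM scale gives a larger difference.

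Of the contigs matched by name alone, the serpin antichymotrypsin-2-like (LOC105201056) held 601 reads at 40 °C and 1457 at 30 °C, 2.75-fold lower (2.50 to 3.03) and 1.93-fold on the FPKM scale. TTLL6 (LOC105203630), which adds glutamate to tubulin, had contigs in both directions. The one with 102 reads against 7 was 12.9-fold higher (6.02 to 32.8), and the other held 7 reads against 30. Summed over both contigs TTLL6 had 109 against 37 reads, 2.60-fold higher (1.77 to 3.88).

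**Figure D2:**
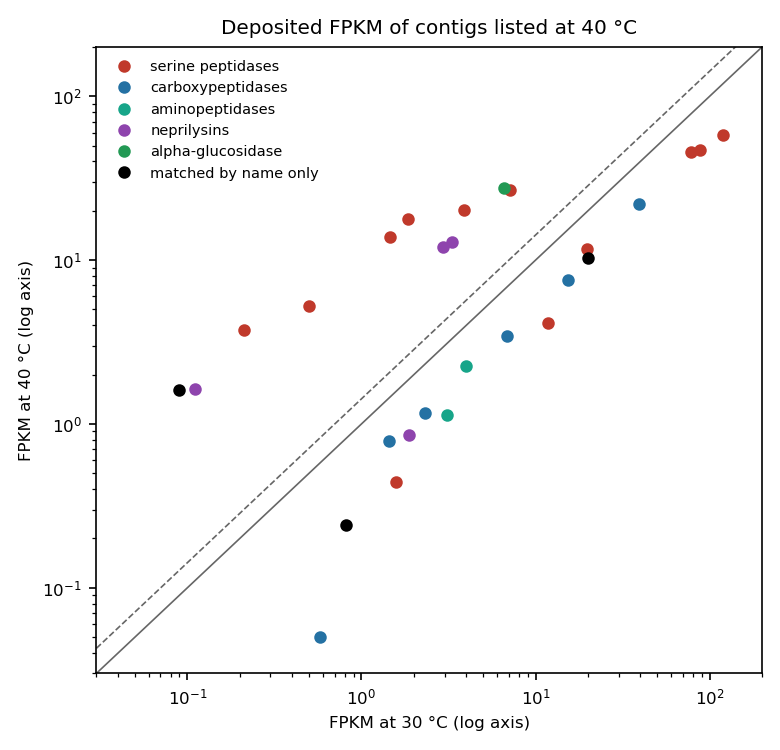
The authors' FPKM values at 30 °C (horizontal, log axis) and 40 °C (vertical, log axis) for the same 28 contigs, coloured by class. The solid line marks equal FPKM and the dashed line equal CPM on the authors' normalized scale; the 3 abundant chymotrypsins, from 78.14 to 119.58 FPKM at 30 °C, lie below both lines, and the contigs above both were under 8 FPKM at 30 °C.

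At 10 °C, 16 members were listed, 10 higher and 6 lower than at 30 °C, a share of 62.5% higher beside 56.5% over all listed contigs and 56.7% over ant contigs with a protein name (lower: 43.5% and 43.3%). These shares are close to the background and are not read as a result about peptidases. Without the TTLL1 contig the lower count was 5. Of 10 members that reached a mean of 1 CPM, 6 passed 2-fold upwards and 4 downwards, against backgrounds of 36.2% and 47.0% over all listed contigs and 40.6% and 45.6% over ant contigs with a protein name. On the FPKM scale 5 and 4 did so, where the backgrounds were 35.2% and 47.6% or, over ant contigs with a protein name, 39.7% and 46.2%. Their median log2 ratio was 1.02, against -0.93 over all listed contigs. Of the 10 higher contigs, 4 had under 50 reads in either library.

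Trypsin (LOC105193597) had the highest mean CPM of the 10 and 30 °C libraries among the members listed at 10 °C, with 357 reads (11.9 CPM) against 1210 (31.6 CPM) at 30 °C, 2.66-fold lower (2.36 to 3.0). A second contig of the gene, whose best nucleotide hit lies in another ant species, held 5 reads against 30, and the sum was 2.69-fold lower (2.39 to 3.03). Zinc carboxypeptidase-like (LOC105196618), close by its best UniProt hit to a mosquito carboxypeptidase A, held 112 reads against 461, 3.23-fold lower (2.62 to 4.01). Xaa-Pro aminopeptidase 1-like (LOC105195934) held 144 against 449 reads, 2.45-fold lower (2.02 to 2.97). Cathepsin O, a cysteine peptidase, had contigs of LOC105195260 in both directions. The one with the peptidase domain held 94 reads against 325, and another, with only the propeptide inhibitor domain, held 17 against 4. Together they had 111 against 329 reads, 2.32-fold lower (1.87 to 2.91).

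The contigs that were higher at 10 °C had at most 2.93 CPM at 30 °C. A low value in that single library also favours being listed as higher, so selection enters this trait. Cytosolic carboxypeptidase 1-like LOC105199439 had 413 reads (13.8 CPM) against 112 (2.93 CPM), 4.70-fold higher (3.81 to 5.85). Aminopeptidase N-like (LOC105193936), a family of midgut membrane enzymes in insects, had 197 reads against 49, 5.13-fold higher (3.73 to 7.16). Its best nucleotide hit names another gene, LOC105205291. Carboxypeptidase Q-like (LOC105201454), a relative of a mammalian dipeptidase, had 80 reads against 15, 6.80-fold higher (3.89 to 12.7). Easter-like LOC105194356 had 64 against 14 reads, 5.83-fold higher (3.23 to 11.3), and easter-like LOC105204787 had 192 against 100, 2.45-fold higher (1.91 to 3.15). Neprilysin-1-like LOC105205956 was 2.80-fold higher (1.99 to 4.0). The 6 contigs with under 50 reads in both libraries, 4 higher and 2 lower, differed by 4.01- to 7.01-fold. Among them were a trypsin-2-like contig (LOC105200933) with 29 reads against 8 and chymotrypsin-like elastase 2A (LOC105202218) with 44 against 14.

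At 20 °C, 17 members were listed, 10 higher and 7 lower, or 9 and 6 without the TTLL6 contigs. The share of 58.8% higher stood beside 52.4% over all listed contigs and 54.6% over ant contigs with a protein name (lower: 47.6% and 45.4%). A mean of 1 CPM was reached by 8, of which 5 passed 2-fold upwards and 2 downwards, beside 31.4% and 48.3% of all listed contigs and 36.1% and 44.9% of ant contigs with a protein name. This split turned over with the scaling, to 1 higher and 3 lower on the FPKM scale, where all listed contigs gave 10.9% and 63.8% and ant contigs with a protein name 13.2% and 57.4%. Under 50 reads in both libraries lay behind 8 of the 17 contigs. The members' median log2 ratio was 1.05, against -0.97 over all listed contigs.

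The member listed at 20 °C with the highest mean CPM of both libraries was dipeptidyl peptidase 4 (LOC105195077), which removes end dipeptides with proline. Its best UniProt hit is the inactive relative, dipeptidyl peptidase 10. It held 208 reads (8.96 CPM) against 835 (21.8 CPM) at 30 °C, 2.43-fold lower (2.09 to 2.85) and 3.80-fold on the FPKM scale. Its relative inactive dipeptidyl peptidase 10 (LOC105201716), a channel partner without enzyme activity in mammals, held 14 against 70 reads, 3.03-fold lower (1.69 to 5.83) and 4.73-fold on the FPKM scale. Cytosolic carboxypeptidase 1-like LOC105193503 was lower too, with 65 reads against 574 and 2.80 against 15.0 CPM, a fold of 5.35 (4.14 to 7.03), or 8.35 on the FPKM scale. A serine protease snake-like contig (LOC105193127), named after another fly cascade enzyme, held 10 reads against 55, 3.33-fold lower (1.68 to 7.34) and 5.2-fold on the FPKM scale.

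Higher at 20 °C was carboxypeptidase Q-like (LOC105201454), with 101 reads against 15, 11.1-fold (6.43 to 20.6) and 7.12-fold on the FPKM scale. Aminopeptidase N-like (LOC105193936) was 3.50-fold higher (2.47 to 5.02) on 104 reads against 49, and 2.24-fold on the FPKM scale. Cathepsin L1 (LOC105203276), a lysosomal cysteine peptidase, had 153 reads against 87, 2.90-fold higher (2.22 to 3.82) but 1.86-fold on the FPKM scale. Neprilysin-1-like LOC105205956 was 2.77-fold higher (1.93 to 4.02) on 84 reads, and 1.78-fold on the FPKM scale. Cytosolic carboxypeptidase 1-like LOC105199439 was 2.52-fold higher (1.97 to 3.23), and 1.61-fold on the FPKM scale. The related genes LOC105199439 and LOC105193503 thus stood on opposite sides of their 30 °C values in the same library. Contigs with few reads included chymotrypsin-2-like LOC105200925 at 35 against 14 reads and an endoplasmic reticulum aminopeptidase 1-like contig (LOC105202154) at 5 against 33.

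**Figure D3:**
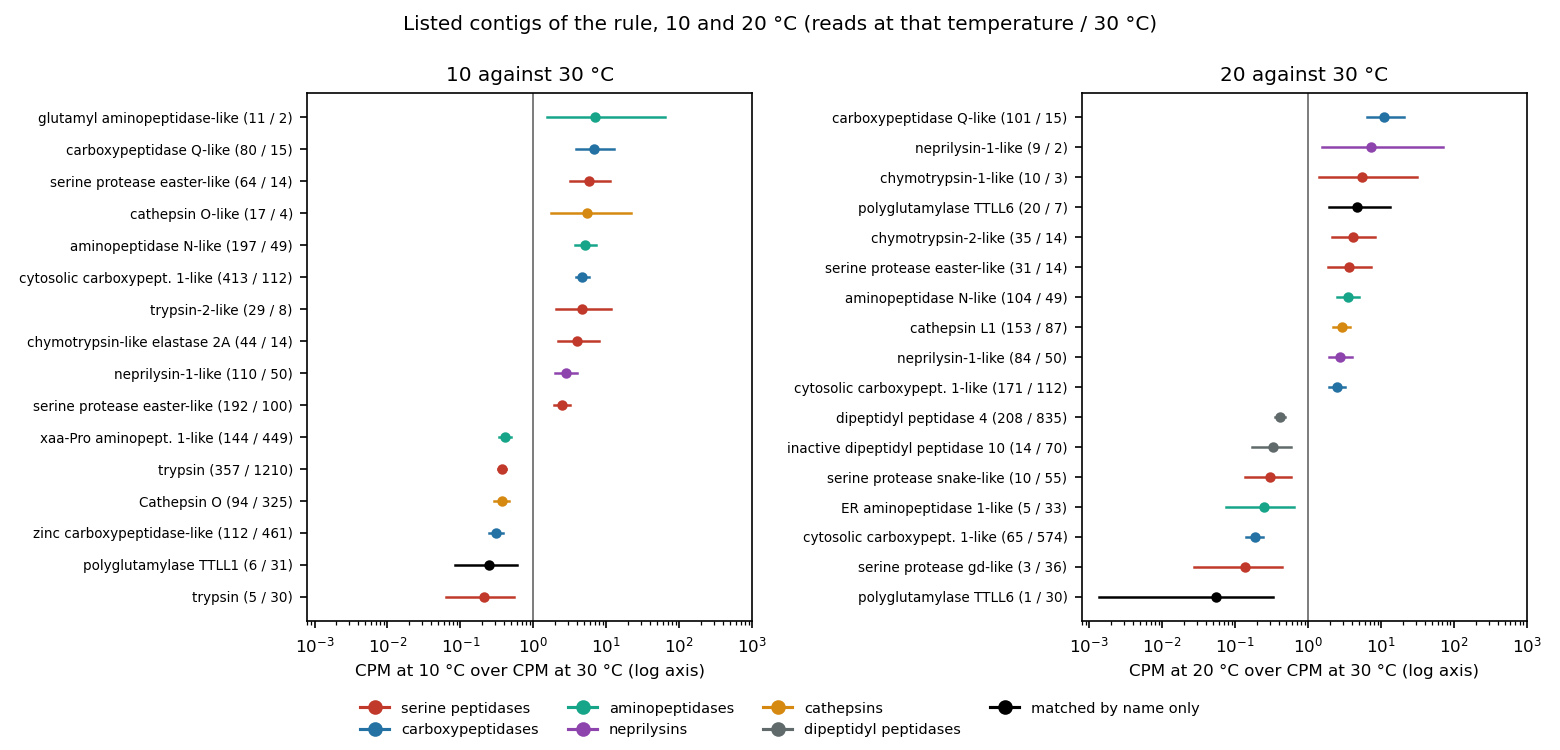
Ratio of CPM at 10 °C (left) and 20 °C (right) to CPM at 30 °C (log axis) for the 16 and 17 listed contigs, with reads at that temperature and at 30 °C in brackets. Points are single-library ratios coloured by class with 95% counting intervals as bars; 10 contigs lie to the right of equal CPM in each panel, and black marks contigs that match the rule by name only.

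Of the 46 contigs, 35 were listed at 1 temperature, 7 at 2 and 4 at all 3. The comparisons share the 30 °C library, so a low or high value there enters each of them. Levels are therefore given side by side. Cytosolic carboxypeptidase 1-like LOC105199439 had 13.8 CPM at 10 °C, 7.37 CPM at 20 °C, 2.93 CPM in the control and 1.13 CPM at 40 °C, lower at each warmer temperature. From 10 to 40 °C it differed by 12.2-fold (9.04 to 16.7), and by 8.41-fold on the FPKM scale. The 30 °C reads do not enter that ratio, but the contig was listed through its differences from 30 °C. Being listed higher at 10 °C and lower at 40 °C fixed the direction of the ratio in advance. Carboxypeptidase Q-like (LOC105201454) had 2.66 CPM at 10 °C, 4.35 CPM at 20 °C, 0.392 CPM in the control and 0.0230 CPM at 40 °C, the last being 1 read. The order of its 10 and 20 °C values is not settled, as the 1.63-fold difference (1.21 to 2.22) falls to 1.07-fold on the FPKM scale. Aminopeptidase N-like (LOC105193936) had 6.56 CPM at 10 °C, 4.48 at 20 °C and 1.28 at 30 °C, and was not listed at 40 °C.

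The gd-like serine protease (LOC105199125) ran the opposite way, with 0.129 CPM at 20 °C (3 reads), 0.940 at 30 °C and 6.84 at 40 °C. Between 20 and 40 °C the ratio was 52.9 (17.9 to 258), or 118 on the FPKM scale. Its direction was likewise fixed by the contig being listed on opposite sides of 30 °C. The other contigs listed at several temperatures had 30 °C as their lowest or highest value. Being listed on the same side of 30 °C each time fixed this in advance, so it is not read as a dip or peak there. Neprilysin-1-like LOC105205956 had 3.66, 3.62 and 3.71 CPM at 10, 20 and 40 °C against 1.31 at 30 °C. Its values at 10, 20 and 40 °C did not differ beyond counting error on the authors' scale, with a 40 to 20 °C ratio of 1.02 (0.782 to 1.35), but the FPKM scale makes that ratio 2.28. Easter-like LOC105194356 was lowest in the control at 0.366 CPM, with 2.13 CPM at 10 °C, 1.34 CPM at 20 °C and 2.40 CPM at 40 °C, and the ratio of 40 to 10 °C was 1.12 (0.816 to 1.56), or 1.63 on the FPKM scale. Easter-like LOC105204787 had 6.39 CPM at 10 °C, 2.61 at 30 °C and 6.78 at 40 °C. Xaa-Pro aminopeptidase 1-like (LOC105195934) was highest at 30 °C, with 4.80 CPM at 10 °C, 11.7 at 30 °C and 4.68 at 40 °C. Neprilysin-1-like LOC105202797, whose nucleotide annotation names no gene of this ant, rested on 9, 2 and 24 reads at 20, 30 and 40 °C. The better covered TTLL6 contig held 20, 7 and 102 reads at those temperatures, and the other held 1, 30 and 7.

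**Figure D4:**
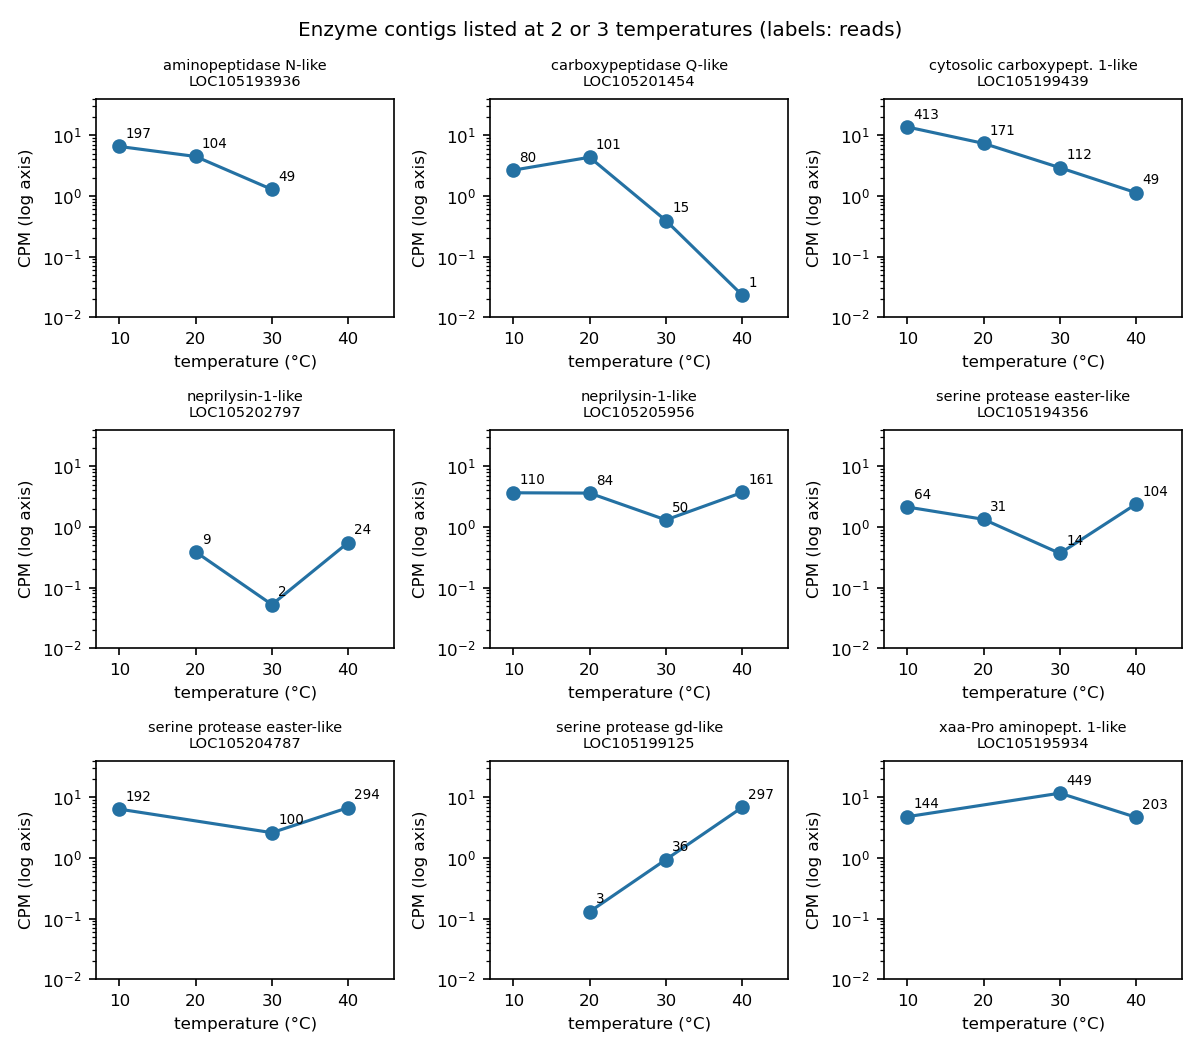
CPM (log axis, the same range in every panel) against temperature in °C for the 9 enzyme contigs listed at 2 or 3 temperatures, with the reads of each library beside its point. Each point is 1 library and the lines only join the points; LOC105199439 goes from 13.8 to 1.13 CPM, and LOC105199125 goes from 0.129 to 6.84 CPM.

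Companions of digestion and of peptidase cascades were looked up by protein name in 8 further lists. Their counts are to be read against all listed contigs, of which 56.5% were higher at 10 °C, 52.4% at 20 °C and 46.7% at 40 °C. Their folds are on the authors' scale only. The FPKM scale would shrink folds of lower contigs at 40 °C by 1.42 and of higher contigs at 20 °C by 1.56, so some may fall below 2. It would enlarge those of the opposite directions. Peptidase inhibitors were higher in 4 of 5 contigs at 40 °C, beside 46.7% of all listed contigs and 59.0% of ant contigs with a protein name, and in the 1 listed at 10 °C. The serpin antichymotrypsin-2-like (LOC105201056), 2.75-fold lower at 40 °C, matched the members' rule and so is not in that count. The most abundant contig of the list, of serine protease inhibitor 3/4-like (LOC105207463), held 14874 reads (343 CPM) at 40 °C against 3288 (85.9 CPM), 3.99-fold higher (3.84 to 4.15). At 40 °C 2 other contigs of that gene were higher as well. A kunitz-type protease inhibitor (LOC105196471) was the only inhibitor listed at 20 °C, with 368 reads against 2293, 3.78-fold lower (3.38 to 4.23). The rule kept out 2 contigs named venom serine protease Bi-VSP-like, both higher at 40 °C. LOC105195388 held 3590 reads against 982, 3.22-fold higher (3.0 to 3.46), and LOC105193145 held 256 against 53.

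Among contigs named lipase, pancreatic triacylglycerol lipase-like (LOC105199575) was lower at 40 °C, 159 reads against 615, a fold of 4.38 (3.68 to 5.25). The lipase list had 2 higher and 3 lower contigs there, 4 higher and 1 lower at 10 °C, and 5 higher and 1 lower at 20 °C. That list was drawn by name and is not confined to digestion. Its higher contigs include those of hormone-sensitive lipase (LOC105198580) at 10 and 20 °C. They also include those of sn1-specific diacylglycerol lipase beta-like (LOC105193191) at 20 °C. At 10 °C the lower contig, pancreatic lipase-related protein 2-like (LOC105195913), was the most abundant, at 16.5 against 45.9 CPM. Other glycosidases were 2 higher at 40 °C, both lysozymes, which cut bacterial walls, and 2 lower at 10 °C and 1 lower at 20 °C. Lysozyme 2-like (LOC105201240) held 2298 reads against 586 at 40 °C, 3.46-fold higher (3.16 to 3.79).

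The list of lysosome and acidification held 3 contigs at 10 °C and 1 at 20 °C, each higher, beside 56.5% and 52.4% of all listed contigs, and 0 at 40 °C. Lysosomal aspartic protease-like (LOC105195247), of the cathepsin D family, was in both, and stood at 0.418 CPM at 30 °C. It had 4.06 CPM at 10 °C, 9.72-fold higher (5.75 to 17.5), and 4.01 CPM at 20 °C, 9.59-fold higher (5.60 to 17.5). Lysosomal-trafficking regulator (LOC105199971), listed at 10 °C, held only 14 reads against 1. Cathepsins matched the members' rule and so are not in this list. Of these, cathepsin O was 2.32-fold lower at 10 °C over its summed contigs, and cathepsin L1 was 2.90-fold higher at 20 °C. Contigs of the gut lining list, which holds mucins and peritrophins, were 1 higher and 1 lower at 10 °C, 3 lower at 20 °C, and 2 higher and 1 lower at 40 °C. The nutrient uptake list was drawn by transporter name and is not confined to food uptake. It also holds contigs named vesicular inhibitory amino acid transporter (LOC105207723) and excitatory amino acid transporter (LOC105197539 and LOC105207551). Contigs of this list were 3 higher and 10 lower at 10 °C, where 43.5% of all listed contigs were lower. They were 8 higher and 3 lower at 20 °C, and 8 and 4 at 40 °C, where 52.4% and 46.7% of all listed contigs were higher. Other proteases were 2 higher and 1 lower at 10 °C, 4 higher at 20 °C, and 4 higher and 3 lower at 40 °C. Endothelin-converting enzyme 1-like (LOC105196491), a relative of the neprilysins, held 1713 reads at 40 °C against 4241, 2.81-fold lower (2.65 to 2.97). Another contig of that name, LOC105204417, held 35 reads at 40 °C against 9, 3.43-fold higher (1.62 to 8.12). Angiotensin-converting enzyme 2-like (LOC105205666), a peptidase that trims signalling peptides in mammals, held 1842 reads at 40 °C against 525, 3.09-fold higher (2.81 to 3.42). Caspase-1-like contigs, of the cell death peptidases, went both ways at 40 °C. LOC105201885 held 339 reads against 39, 7.67-fold higher (5.49 to 11.0), and LOC105198123 held 28 against 67, 2.71-fold lower (1.72 to 4.38).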

How the data were processed

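cDNA of whole medium workers was made with oligo-dT primers and libraries with Illumina protocols, per the labels' protocols, with 1 library at each temperature. Per the submitters' processing notes, the tools included RSEM, Bowtie 1.1.2, Trimmomatic 0.38 and FastQC 0.11.7. For the assembler and the annotation, versions are not given in the sources used here. Groups came from the treatment labels. Each of the 3 tables deposited by the authors sets 1 temperature against 30 °C and lists only contigs past the authors' limits. A line of the deposited 40 °C list (1 in all) was not analysed here. Deposited read counts are whole numbers and entered as they stand. The deposited log2 values are log2(CPM + 1), a relation checked on the counts, and gave the scaled library sizes. The FPKM values deposited by the authors gave levels per length and the total-read scaling. The signed fold score and the p-values in the authors' deposited tables rest on 1 library a side and were used only for the smallest listed fold.

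Log2 ratios carry a pseudocount of 1 CPM. Every member with at least 50 reads in the higher library, or listed in several tables, is named. Intervals and floors cover counting error alone, because each temperature had 1 library. PCR copies of a molecule cannot be recognised without molecular identifiers, so the intervals may be too narrow even for counting error. The members, the 8 companion lists and the alternatives were chosen with earlier results of these data known. Alternatives were pseudocounts of 0.1 and 5, no filter, a filter of 10 CPM, the FPKM scaling, a 4-fold limit, 1 contig per gene and a stricter tie to the ant. Leaving out the 4 contigs matched by name alone was added after the data were seen. The formulas were tested on simulated counts. Calculations ran in SciPy 1.17.1, numpy 2.4.6 and pandas 2.3.3 under Python 3.11.15, and plots in matplotlib 3.10.9.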

Additional observations from a re-analysis of the deposited data

Results flagged for a closer look

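Contigs of 3 genes stood on opposite sides of their 30 °C level at different temperatures, a difference that was not tested because each temperature had 1 library. For cytosolic carboxypeptidase 1-like LOC105199439 the log2 ratio at 40 °C minus that at 10 °C was -2.79, and minus that at 20 °C it was -1.97. For carboxypeptidase Q-like (LOC105201454) the same differences were -1.84 and -2.39, and its 40 °C value rests on 1 read. For serine protease gd-like (LOC105199125) the log2 ratio at 40 °C minus that at 20 °C was 2.80, and its 20 °C value rests on 3 reads.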

How the results depend on the processing

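No paired analysis was possible because each temperature had 1 library, and for the same reason no library could be left out. Signs of the 43 log2 ratios of members with at least 50 reads could not change with these settings. A pseudocount leaves a sign as it is, and the FPKM scaling shifts folds by at most 1.56, below the smallest member fold of 2.42. Their sizes did change. By more than the counting interval, 9 of the 43 moved with a pseudocount of 0.1, 34 with a pseudocount of 5 and 19 with the FPKM scaling. Counts of listed members in each direction were likewise fixed under the FPKM scaling. They stayed within 1.5 times with 1 contig per gene, a tie to the ant by KEGG identifier only, and without the contigs matched by name alone. The counts of at least 2-fold differences moved more, as higher and lower members. With a pseudocount of 5 they were 1 and 1 at 10 °C, 0 and 1 at 20 °C, and 3 and 8 at 40 °C. With a filter of 10 CPM they were 0 and 1 at 10 °C, 0 and 1 at 20 °C, and 2 and 8 at 40 °C. At a 4-fold limit they were 0 and 0 at 10 °C, 0 and 1 at 20 °C, and 3 and 0 at 40 °C. The FPKM scaling left 1 higher at 20 °C and 3 lower at 40 °C. The median log2 ratio became 0.43 at 10 °C and -0.53 at 40 °C with a pseudocount of 5, and 0.41 at 20 °C with no filter. A filter of 10 CPM left 1 member each at 10 and 20 °C, trypsin and dipeptidyl peptidase 4, and so turned the medians to -1.34 and -1.20. Apart from that filter the cause was not tested. Depth limits contigs near 3 reads, which is 0.129 CPM at 20 °C and 0.0691 CPM at 40 °C.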
